A study of Mus musculus with 9 samples.

Results

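NF-κB is a family of transcription factors that act as pairs of subunits, and in most cells it is held in the cytoplasm by inhibitor proteins called IκB. When a kinase complex marks an IκB protein for destruction, the subunits enter the nucleus and switch on genes of inflammation, survival and stress, among them those of their own inhibitors, which closes a feedback loop. In skeletal muscle the pathway is known for its part in wasting, and the glucocorticoid receptor, the target of dexamethasone (DEX), is known to repress many NF-κB target genes. The genes described here are 10 members of this system: the subunits Rela, Relb, Nfkb1 and Nfkb2, the IκB inhibitors Nfkbia, Nfkbib and Nfkbie, the nuclear IκB proteins Nfkbiz and Bcl3, and Tnfaip3, which encodes the ubiquitin-editing enzyme A20. A probe set, a group of short DNA probes that together read the transcripts of a gene, was taken as a member where the array's annotation gave it exactly 1 gene symbol and that symbol was 1 of the 10. This gave 19 of 45037 probe sets, for 9 of the 10 genes, and Nfkb1 was not analysed here. The genes were chosen with earlier results of these data in view, and Nfkbia in particular was chosen by its lower signal in DEX than in control mice. That contrast of Nfkbia is therefore given as a description. Limma call counts that include it are printed only for completeness, and nothing is read from them.

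The arrays measured RNA from the tibialis anterior, a fast muscle of the lower leg, of 15-week-old male C57BL/6J mice, with 1 array per mouse and 3 mice per group. The DEX + TE group received 5 mg/kg DEX by intraperitoneal injection daily for 7 d and ate a purified diet with 2% turmeric extract (TE), the DEX group received the same injections on the diet without TE, and the control group received saline on that diet. Per the methods, TE feeding started 5 d before the injections, whereas the labels place turmeric after DEX. The mice used for the arrays had been selected because their body and muscle weights were near the average.

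The deposited signals were linear intensities with a trimmed mean of 500 on each array. A signal of 50 or more was read for 63.6 ± 1.46% (SD, n = 3) of probe sets in DEX + TE mice, 59.2 ± 0.742% in DEX mice and 60.9 ± 1.76% in control mice. All 8 muscle fiber markers were read, with summed signals of 424590 to 459656 in DEX + TE mice, 341590 to 436921 in DEX mice and 443818 to 626734 in control mice. Of the glucocorticoid receptor targets that checked the treatment, Fkbp5, a chaperone partner of the receptor, had a signal of 4234 ± 302 in DEX + TE mice, 5724 ± 1869 in DEX mice and 1163 ± 187 in control mice (DEX against control, limma adjusted p = 0.0134). Tsc22d3, which encodes the glucocorticoid-induced leucine zipper protein, was at 7095 ± 420 in DEX + TE mice, 7091 ± 1296 in DEX mice and 12242 ± 579 in control mice (DEX against control, limma adjusted p = 0.0685, and 0.0385 for both injected groups against control). Of the 14 genes in that list, limma called 1 higher and 2 lower in DEX mice, where 0.278% and 0.322% of all genes were called. The lower ones were Ddit4 and Sgk1, both known as genes that glucocorticoids induce. Ddit4 was at 280 ± 91.3 in DEX + TE mice, 320 ± 66.3 in DEX mice and 4638 ± 439 in control mice (−3.87 for DEX against control on the log2 scale, adjusted p = 0.00338). Sgk1 was at 21012 ± 1179 in DEX + TE mice, 18220 ± 1107 in DEX mice and 29962 ± 2238 in control mice (−0.72, adjusted p = 0.0416). Probe sets entered the test if any group's mean log2 signal was at or above log2 of 50, which 29269 did. A call needed an adjusted p under 0.05 over all of these and a change of 0.6 or more in size on the log2 scale. In bulk muscle, fewer cells of a type and less RNA per cell cannot be told apart. With 3 arrays per group, the precision of each level is limited by their number.

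Of the 19 member probe sets, 14 were tested and cover 7 genes (Nfkbia, Nfkbib, Nfkbiz, Nfkb2, Rela, Relb and Tnfaip3). The other 5 were the probe set of Bcl3, both of Nfkbie, 1 of 2 of Nfkbib and 1 of 3 of Nfkbiz. Nfkbia had lower signals in all DEX-injected mice than in all control mice with each of its 5 probe sets. In DEX + TE mice limma called 4 of the 5 lower than in control mice, and these control mice are also part of the contrast by which the gene was chosen. It called 0 member probe sets between the DEX + TE and DEX groups, and no probe set of another member in any comparison.

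The promoter of Nfkbia is shown because this gene carries the change, and that of Rela because Rela encodes the subunit that IκBα, the product of Nfkbia, holds back. The sequences are the 250 bases before the RefSeq start in the mouse build GRCm38.p6, for Nfkbia chr12:55492648-55492897 on the minus strand and for Rela chr19:5637291-5637540 on the plus strand. Capitals mark matches, on either strand, to the NF-κB motif searched here, GGGA followed by any 4 bases and CC.
Nfkbia: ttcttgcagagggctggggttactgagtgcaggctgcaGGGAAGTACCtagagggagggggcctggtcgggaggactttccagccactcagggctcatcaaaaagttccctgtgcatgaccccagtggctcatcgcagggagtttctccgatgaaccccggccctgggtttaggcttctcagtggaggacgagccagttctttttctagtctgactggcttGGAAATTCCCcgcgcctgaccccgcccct
Rela: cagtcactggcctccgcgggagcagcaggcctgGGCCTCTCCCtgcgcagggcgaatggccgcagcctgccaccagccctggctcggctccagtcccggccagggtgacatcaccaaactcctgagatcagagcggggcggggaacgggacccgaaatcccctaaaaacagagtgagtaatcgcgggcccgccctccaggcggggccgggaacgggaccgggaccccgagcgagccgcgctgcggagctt
The Nfkbia promoter held 2 matches, GGGAAGTACC beginning 212 bases before the start and, on the other strand, GGAAATTCCC beginning 29 bases before it. The Rela promoter held 1, GGCCTCTCCC on the other strand, beginning 217 bases before the start. RefSeq promoters were found for 7 of the 10 members, 10 promoters in all. The motif was in 7 of these 10 promoters, where 17.6% of 32851 promoters of the same length held it. The 7 belong to 4 genes, Nfkbia, Rela, Nfkb2 (3 promoters, some of which overlap) and Tnfaip3 (2 promoters). No promoter of Bcl3, Nfkbib or Nfkbie held it. The glucocorticoid response element, searched on both strands as AGAACA followed by any 3 bases and TGTTC, was in 0 of the 10 and in 0.0304% of all promoters. A motif this rare would hardly ever be found in 10 promoters, so nothing is read from its absence. A match describes letters and not a bound site, and a motif found on both strands at the same place was counted once.

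Nfkbia encodes IκBα, the inhibitor whose gene NF-κB itself switches on to end its own activity. Its brightest probe set (1420088_at) had signals of 2625, 3286 and 3384 in DEX + TE mice, 2926, 3025 and 3898 in DEX mice, and 8026, 6885 and 8875 in control mice. All 6 DEX-injected mice were below the lowest control mouse, and the DEX + TE and DEX mice overlapped. The means were 3098 ± 413 (SD, n = 3) in DEX + TE mice, 3283 ± 535 in DEX mice and 7929 ± 999 in control mice. Against control mice the log2 fold change was −1.36 (95% interval −1.75 to −0.96) in DEX + TE mice and, as a description, −1.28 in DEX mice. The DEX + TE level was 0.39 and the DEX level 0.41 of the control level, from the log2 means. These comparisons share the 3 control arrays.

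**Figure D1:**
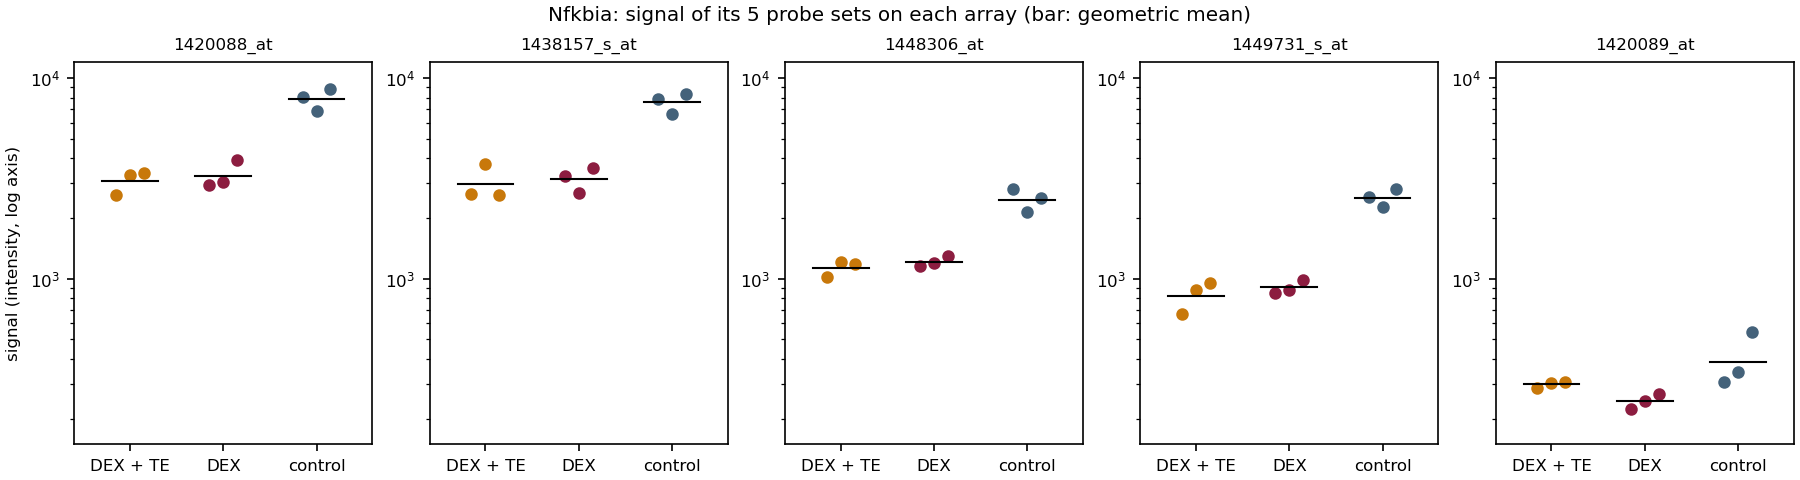
Signal (deposited intensity, log axis) of the 5 Nfkbia probe sets on each of the 9 arrays, with the DEX + TE, DEX and control groups from left to right in each panel; points are mice and bars are geometric means. In 4 of the 5 panels the 6 DEX-injected mice lie well below the 3 control mice, and in the dimmest, 1420089_at, the groups lie closer, with control mice at 305 to 541.

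The other probe sets of Nfkbia gave the same order of groups, with the exception of the dimmest. For 1449731_s_at the signals were 669, 876 and 952 in DEX + TE mice, 850.4, 884 and 989.6 in DEX mice, and 2567, 2280 and 2791 in control mice. This was the probe set with the largest difference, with log2 fold changes of −1.62 in DEX + TE mice and −1.49 in DEX mice against control mice. The suffix _s marks probes that may read more than 1 transcript.

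For 1438157_s_at the signals were 2649, 3729.6 and 2613 in DEX + TE mice, 3267, 2692 and 3551.5 in DEX mice, and 7866, 6658 and 8292 in control mice. For 1448306_at they were 1023, 1212 and 1188 in DEX + TE mice, 1161, 1205 and 1293 in DEX mice, and 2791, 2160.3 and 2529 in control mice. Neither of these had a DEX-injected mouse that reached the control range. Their log2 fold changes against control mice were −1.36 and −1.12 in DEX + TE mice and −1.27 and −1.02 in DEX mice. The dimmest probe set, 1420089_at, had signals of 284.5, 303.5 and 305.0 in DEX + TE mice, 225, 245 and 267 in DEX mice, and 305.3, 342 and 541 in control mice. Its highest DEX + TE mouse lay next to its lowest control mouse, and its log2 fold changes against control mice were −0.37 in DEX + TE mice (limma adjusted p = 0.475) and −0.65 in DEX mice. It was also the only member probe set whose DEX + TE mice all lay above its DEX mice (log2 fold change 0.28, limma adjusted p = 0.785). Across the 9 arrays the log2 signals of the 5 probe sets correlated with r of 0.67 to 0.99 over 10 pairs, a description of probe sets that share their arrays and groups. Probe sets differ in probe affinity, so their levels are not compared with each other.

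Whether TE feeding changed Nfkbia in DEX-injected mice is the comparison of the DEX + TE group with the DEX group. The difference for 1420088_at was −0.08 on the log2 scale, with a 95% interval of −0.48 to 0.31 (limma adjusted p = 0.93). For the other 3 bright probe sets it was −0.09, −0.10 and −0.14, with adjusted p of 0.925, 0.882 and 0.861. The interval for 1448306_at ran from −0.40 to 0.20 and that for 1449731_s_at from −0.51 to 0.23. The upper bounds of the 4 intervals lay from 0.20 to 0.34. An adjusted p this high does not show that DEX + TE and DEX mice were alike. The size of the difference depended on array scaling. With arrays centred on their medians it was −0.33 for 1420088_at (limma adjusted p = 0.323). For the other 3 bright probe sets it was then −0.35, −0.35 and −0.39, with adjusted p of 0.384, 0.317 and 0.317.

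The called count of members can be set beside that of all probe sets. In DEX + TE mice against control mice, limma called 4 of 14 member probe sets lower and 0 higher, where 0.157% of all probe sets were called lower and 0.222% higher. The adjusted p of the 4 ran from 0.0128 to 0.0379, against the same control mice by which Nfkbia had been noticed. In DEX mice against control mice the count was 4 lower, all of Nfkbia, and 0 higher (0.27% of all probe sets lower, 0.232% higher). The choice of Nfkbia used this contrast, so nothing is read from that count. With both injected groups averaged against control mice, which uses those DEX and control arrays again, it was 4 lower and 0 higher (0.379% lower, 0.55% higher). Between the DEX + TE and DEX groups limma called 0 of 14, where 0.0137% of all probe sets were called, with 1 higher at p under 0.05 before adjustment (Tnfaip3) and 0 lower. Rank Product, a test on ranks, as run here on the deposited intensities called 0 member probe sets in this comparison and 0 in each of the others. All 4 calls are of a gene with several probe sets and are not independent of each other.

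For DEX + TE against control, leaving out 1 array left 0 of the 4 calls without control replicate 1, 2 without control replicate 2, and 1 without control replicate 3, DEX replicate 2 or any DEX + TE array. It left 3 without DEX replicate 1 or DEX replicate 3. The log2 fold change of 1420088_at stayed between −1.45 and −1.24 in these refits.

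Signals of cell type markers also differed between these groups. All 8 muscle fiber markers were lower by value in DEX than in control mice. Their median log2 fold change was −0.45, beside −0.03 over all genes tested. Limma called 0 of them, and 8 had p under 0.05 before adjustment. The share of all probe sets under 0.05 before adjustment was counted only for DEX + TE against DEX. Against control mice all 8 were also lower by value in DEX + TE mice (median −0.25, beside 0.02). There 1 of the 8 had p under 0.05 before adjustment, and limma called 0. Between DEX + TE and DEX mice 0 were lower (median 0.19, beside 0.04). The summed signal of 9 fibroblast markers was 28404 to 30385 in DEX + TE mice, 18690 to 22402 in DEX mice and 34886 to 53098 in control mice, with 4 of 9 called lower in DEX mice (Col1a1, Col1a2, Col3a1 and Pcolce). That of 12 macrophage and leukocyte markers was 2623 to 3001 in DEX + TE mice, 1768 to 2382 in DEX mice and 1904 to 3083 in control mice, with 0 called in DEX mice by limma (2 lower at p under 0.05 before adjustment) and 0 by Rank Product. That of 4 adipocyte markers was 1825 to 2773 in DEX + TE mice, 1166 to 1423 in DEX mice and 497 to 702 in control mice, with 2 of 4 called higher for DEX + TE against control (Adipoq and Retn). Over all genes, 0.322% were called lower in DEX mice and 0.278% higher in DEX + TE mice, each against control. For DEX + TE against control, 1 of the 9 fibroblast markers was called lower, where 0.176% of all genes were. Of the lymphocyte markers Cd3e, Cd3d, Cd4, Cd79a and Cd79b did not reach a signal of 50 on average in any group. Between DEX + TE and DEX mice, 0 of 9 fibroblast markers were lower by value, and limma called 0. Before adjustment 5 were higher at p under 0.05, where 7.76% of all probe sets were under 0.05. Wholly higher in DEX + TE mice were 7, where 10.1% of all probe sets were. The part of these cell types in the Nfkbia values was not tested.

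Rela encodes p65, the subunit with the main activating domain of NF-κB. Its probe set (1419536_a_at) had signals of 1229, 1149.5 and 1265 in DEX + TE mice, 1148, 1198 and 1115 in DEX mice, and 976, 834 and 999 in control mice. All DEX-injected mice were above all control mice, and the injected groups overlapped. The means were 1214 ± 59.0 (SD, n = 3) in DEX + TE mice, 1154 ± 41.8 in DEX mice and 936.5 ± 89.2 in control mice. The difference from the control group did not pass the test, with log2 fold changes of 0.38 ± 0.11 (SE) in DEX + TE mice (limma adjusted p = 0.199) and 0.30 ± 0.11 in DEX mice (adjusted p = 0.252). Averaged over both injected groups it was 0.34 (95% interval 0.13 to 0.56, adjusted p = 0.139). Between the DEX + TE and DEX groups it was 0.07, with an interval of −0.17 to 0.32 (adjusted p = 0.894), and −0.18 with arrays centred on their medians. Groups that do not overlap were common on these arrays. Against control mice, 2 of the 14 member probe sets lay wholly higher in DEX + TE mice (Rela and 1433699_at of Tnfaip3) and 6 wholly lower, where 12.4% and 10.3% of all probe sets did. In DEX mice 1 lay wholly higher (Rela) and 6 wholly lower, where 9.07% and 12.1% did, and over both injected groups 1 higher and 5 lower, where 4.9% and 6.02% did. Between DEX + TE and DEX mice 1 lay wholly higher and 0 wholly lower, where 10.1% and 4.75% did. Of the lower ones, 5 in each comparison with control were the Nfkbia probe sets, which in DEX mice is the contrast that chose the gene.

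**Figure D2:**
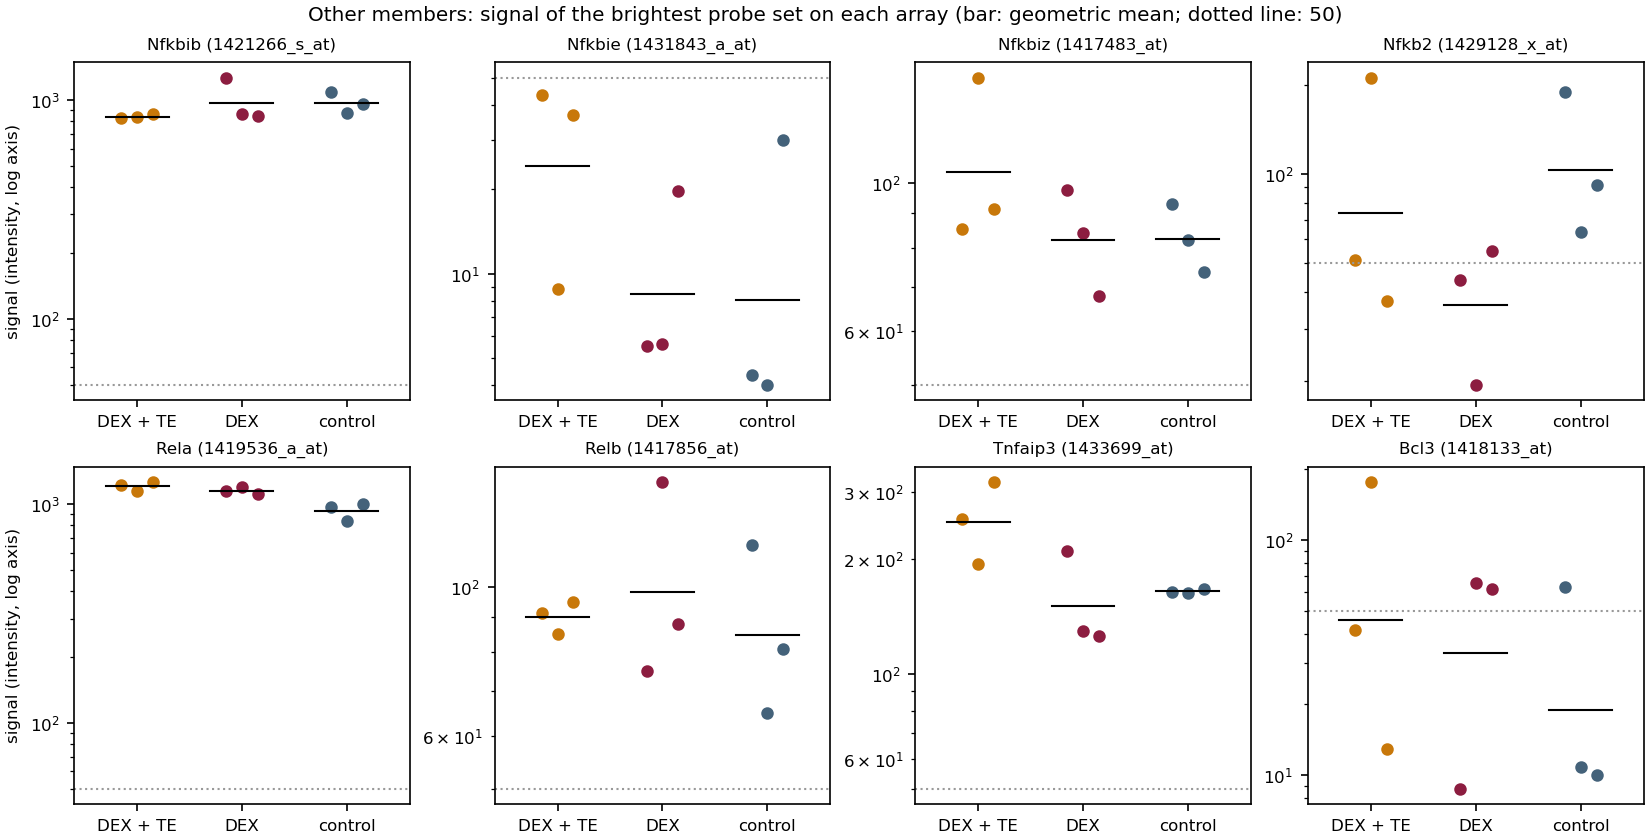
Signal (deposited intensity, log axis, scaled for each panel) of the brightest probe set of the 8 other members on the 9 arrays; points are mice, bars geometric means and the dotted line a signal of 50. Rela stands higher in all 6 DEX-injected mice than in the 3 control mice, Tnfaip3 lies at 193 to 318 in the DEX + TE mice and 163 to 167 in the control mice, and the points of Nfkbie all lie below 50.

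Relb and Nfkb2 encode the subunits of the alternative pathway, in which p100, the Nfkb2 product, is cut to p52 and pairs with RelB. Relb (1417856_at) had signals of 91.2, 85.0 and 94.7 in DEX + TE mice, 74.9, 143 and 88.0 in DEX mice, and 115, 64.9 and 80.8 in control mice. The groups overlapped throughout. On the log2 scale the difference was −0.12 (95% interval −0.78 to 0.54) for DEX + TE against DEX, 0.09 (−0.57 to 0.76) for DEX + TE against control and 0.21 (−0.45 to 0.88) for DEX against control. Each of these changed sign when 1 array was left out.

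Nfkb2 was read near the floor of the array. Its probe set 1429128_x_at, whose suffix _x marks probes that can also bind other transcripts, had signals of 51.3, 211 and 37.2 in DEX + TE mice, 43.7, 19.4 and 54.9 in DEX mice, and 189, 63.7 and 91.4 in control mice. The DEX mice all lay below the control mice, and the DEX + TE mice reached into both ranges. For DEX against control the log2 fold change was −1.52, with a 95% interval of −3.25 to 0.21 (limma adjusted p = 0.402). Its other probe set, 1425902_a_at, had signals of 115, 74.4 and 57.4 in DEX + TE mice, 22.1, 85.0 and 20.2 in DEX mice, and 56.3, 55.0 and 109.8 in control mice. Here DEX replicate 2 stood inside the control range and the other 2 DEX mice were below it. For DEX + TE against DEX the log2 fold changes were 1.04 (−0.69 to 2.77) and 1.23 (−0.15 to 2.61), with adjusted p of 0.775 and 0.681. Each of these intervals holds 0. The 2 probe sets reached a signal of 50 on 6 and 7 of the 9 arrays, and the part of low signal in these results was not tested.

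Nfkbib encodes IκBβ, an inhibitor that, unlike IκBα, is not rebuilt rapidly by NF-κB. Its tested probe set (1421266_s_at) had signals of 826, 836 and 859 in DEX + TE mice, 1266, 859.7 and 844 in DEX mice, and 1092, 868 and 963 in control mice. DEX replicate 1 was the highest of the 9, and the DEX + TE mice lay together below the control mice. Its log2 fold change was −0.21 for DEX + TE against control (95% interval −0.62 to 0.20, limma adjusted p = 0.627), −0.21 for DEX + TE against DEX (−0.62 to 0.20, adjusted p = 0.809) and 0.00 for DEX against control (−0.41 to 0.41). Nfkbia and Nfkbib thus had log2 fold changes of −1.28 and 0.00 in DEX mice, each from its brightest probe set, and the difference between the genes was not tested. The other Nfkbib probe set (1446718_at) reached 50 on 1 of 9 arrays.

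Nfkbiz encodes IκBζ, a nuclear IκB protein that helps NF-κB to switch on a second wave of targets. Its brightest probe set (1417483_at) had signals of 85.3, 143 and 91.3 in DEX + TE mice, 97.4, 84.1 and 67.8 in DEX mice, and 92.9, 82.2 and 73.6 in control mice. DEX + TE replicate 2 stood above the rest, and the groups overlapped. For this probe set the log2 fold change was 0.34 (95% interval −0.20 to 0.87) for DEX + TE against DEX, 0.33 (−0.21 to 0.87) for DEX + TE against control and −0.01 (−0.54 to 0.53) for DEX against control. A second tested probe set, 1448728_a_at, had log2 fold changes of 0.29 for DEX + TE against DEX and −0.29 for DEX against control, with all groups overlapping, and the third, 1457404_at, stayed below 50 on all 9 arrays.

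Tnfaip3 encodes A20, a feedback inhibitor that edits the ubiquitin chains through which receptors activate the IκB kinase. Its brightest probe set (1433699_at) had signals of 254, 193 and 318 in DEX + TE mice, 210.0, 129.7 and 125 in DEX mice, and 164, 163 and 167 in control mice. All DEX + TE mice were above all control mice, and DEX replicate 1 lay above the lowest DEX + TE mouse. The means were 255 ± 62.4 (SD, n = 3) in DEX + TE mice, 155.0 ± 47.7 in DEX mice and 165 ± 2.30 in control mice. The log2 fold change of 0.73 for DEX + TE against DEX (95% interval 0.16 to 1.31) had an adjusted p of 0.562 (0.019 before adjustment), where 7.76% of all probe sets were under 0.05 before adjustment, and the higher level in DEX + TE mice did not pass the test. It was 0.48 with arrays centred on their medians, which moved the median of all probe sets from 0.05 to −0.20. The second probe set, 1450829_at, went the other way, at −0.36 (−1.81 to 1.08), with signals of 104, 45.1 and 21.6 in DEX + TE mice, 65.0, 62.0 and 53.7 in DEX mice, and 81.3, 104.4 and 32.4 in control mice. For DEX + TE against control the log2 fold change of 1433699_at was 0.60 (adjusted p = 0.342), and for DEX against control −0.13 (adjusted p = 0.847).

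Bcl3 and Nfkbie were not tested, because the mean log2 signal of every group was below log2 of 50. Bcl3, which encodes a nuclear IκB protein that pairs with p50 and p52, had signals of 41.5, 177 and 13.0 in DEX + TE mice, 8.72, 66.0 and 61.9 in DEX mice, and 62.9, 10.8 and 10.03 in control mice. At least 1 mouse of each group was above 50 and at least 1 below it. Nfkbie, which encodes IκBε, had signals of 43.4, 8.82 and 36.9 in DEX + TE mice, 5.53, 5.62 and 19.7 in DEX mice, and 4.35, 4.03 and 29.8 in control mice with 1431843_a_at, and 2.07 to 21.7 over all 9 mice with 1458299_s_at. These levels are not told apart from background, and no fold is given for either gene.

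**Figure D3:**
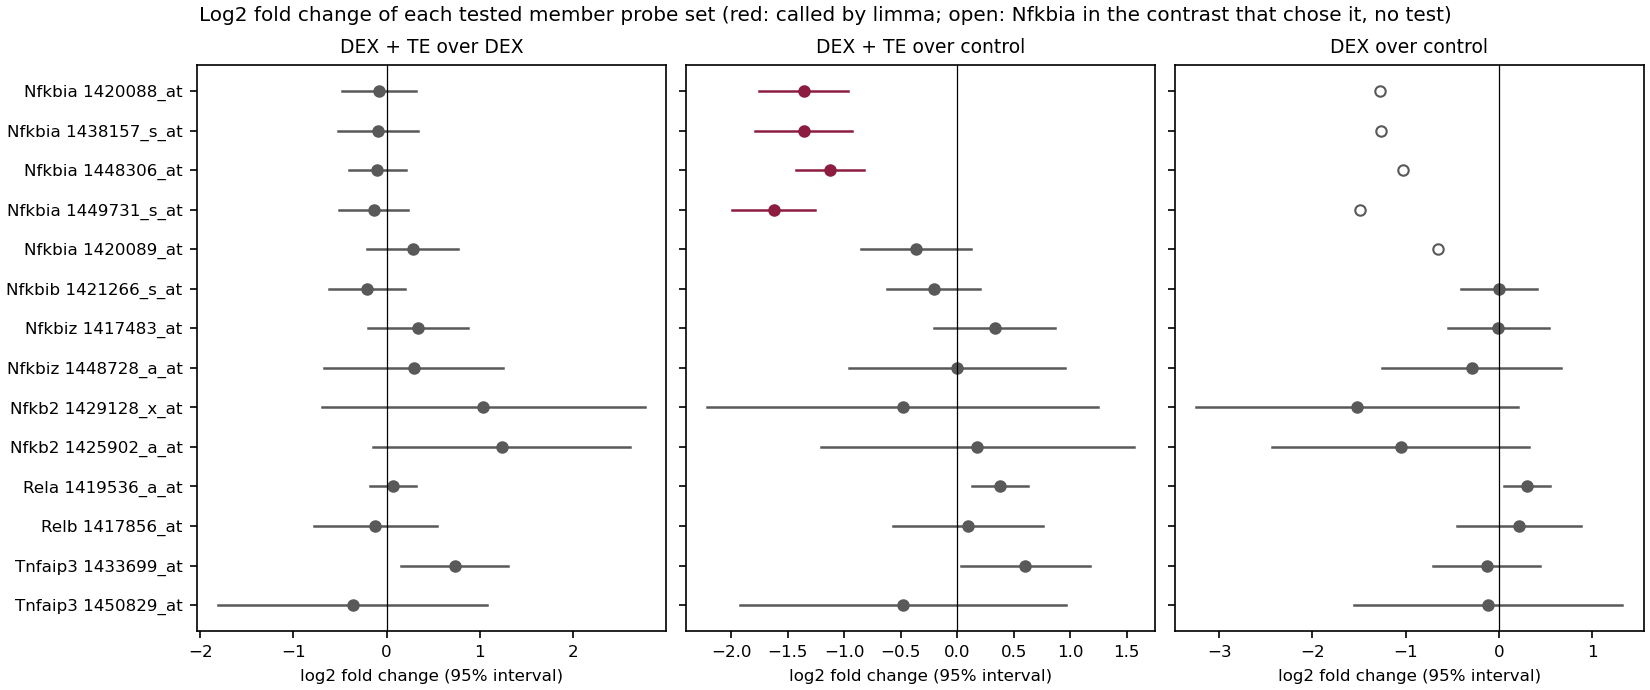
Log2 fold change with its 95% interval for the 14 tested member probe sets in DEX + TE over DEX, DEX + TE over control and DEX over control (each panel has its own axis); red marks probe sets called by limma, and open points are Nfkbia in DEX over control, the contrast that chose it, with no interval or call. The red points are the 4 bright Nfkbia probe sets in DEX + TE over control, between −1.62 and −1.12, and the other panels hold none.

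With the brightest probe set standing for each gene, the median log2 fold change over the 7 tested members was 0.07 for DEX + TE against DEX, 0.09 for DEX + TE against control and −0.01 for DEX against control, beside 0.05, 0.05 and −0.03 over all probe sets tested. For both injected groups against control it was 0.15, beside 0.01. By value, 3 of the 7 were lower in DEX + TE than in DEX, 3 lower in DEX + TE than in control, and 4 lower in DEX than in control. Over the 9 arrays the correlation with Nfkbia was −0.84 for Rela, 0.50 for Nfkb2, 0.21 for Nfkbib, −0.19 for Relb, −0.31 for Nfkbiz and −0.34 for Tnfaip3. These describe 9 arrays of 3 groups and carry no test.

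Among all tested probe sets with 1 symbol, those whose log2 signal followed Nfkbia most closely over the 9 arrays were Nr1d2 (r = 0.979), which encodes the clock repressor REV-ERBβ, Ppif (0.978), which encodes mitochondrial cyclophilin D, Zfand6 (0.978), which encodes a zinc finger protein, Timp3 (0.977), an inhibitor of matrix proteases, and Tuba4a (0.975), an α-tubulin. Each stood lower in both injected groups, which comes with choosing them by so high a correlation with Nfkbia. Timp3 (1419089_at) was at 3427 ± 342 in DEX + TE mice, 3763 ± 94.3 in DEX mice and 6178 ± 582 in control mice, and Nr1d2 (1416958_at) at 13489 ± 616, 12980 ± 749 and 18165 ± 352 in the same order of groups. For DEX against control the log2 fold changes of the 5 ran from −0.71 for Timp3 to −0.29 for Zfand6, so their scale was smaller than the −1.28 of Nfkbia. Other probe sets followed Nfkbia less closely, at r of 0.73 to 0.96 for Timp3, 0.54 to 0.91 for Tuba4a, 0.49 for Nr1d2, 0.18 for Ppif and −0.10 for Zfand6. These correlations are over 9 arrays of 3 groups and are given as a description.

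**Figure D4:**
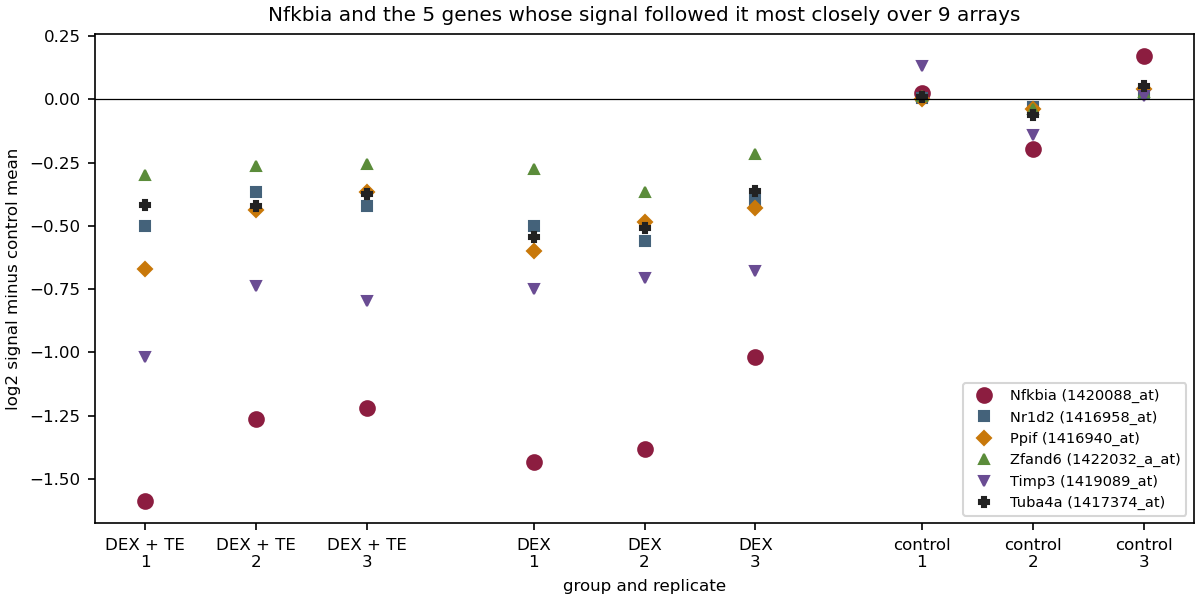
Log2 signal minus the control mean on each of the 9 arrays for Nfkbia (1420088_at) and for the 5 genes with the highest correlation to it. All 6 genes lie below 0 on the 6 DEX-injected arrays, Nfkbia the farthest at −1.59 to −1.02.

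Other genes of the pathway were taken from lists by role, with 1 probe set for each gene, and read against 0.278% of genes called higher and 0.322% called lower in DEX mice. In DEX + TE mice against control mice, 0.278% of genes were called higher and 0.176% lower. Of 12 further subunits and inhibitors, 10 were tested, and limma called 0 in any comparison (for DEX against control, 1 was lower at p under 0.05 before adjustment, and Rank Product called 0). The nearest to a call was Nkiras1, which encodes κB-Ras 1, a small GTPase-like protein that slows the destruction of IκBβ. Its signal was 3009 ± 101 in DEX + TE mice, 2972 ± 101 in DEX mice and 4099 ± 127 in control mice, a log2 fold change of −0.46 for DEX against control (adjusted p = 0.0772). Its relative Nkiras2 was at 700.1 ± 50.9, 693 ± 90.4 and 846 ± 63.3 in the same groups (−0.29, adjusted p = 0.363). Of the 10 tested, Nkiras1 and Nkiras2 lay wholly lower in DEX mice than in control mice and 0 lay wholly higher. Over all probe sets 12.1% and 9.07% did.

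The kinases that act on IκB, with the adaptors before them, counted 28 genes, of which 23 were tested. Limma called 0 in any comparison, while before adjustment p was under 0.05 for 1 lower gene in DEX against control and 2 lower genes in each comparison of DEX + TE with the other groups, and Rank Product called 0. Ikbkb, the catalytic kinase of the complex, had signals of 478, 594 and 518 in DEX + TE mice, 740.3, 541 and 560.3 in DEX mice, and 600.2, 564 and 540.2 in control mice, and Ikbkg, its scaffold, was at 882 to 962 in DEX + TE mice, 926 to 1053 in DEX mice and 941 to 977 in control mice. Irak2, an adaptor kinase of interleukin-1 and Toll-like receptors, was at 422 ± 33.0 in DEX + TE mice, 368 ± 53.3 in DEX mice and 469.6 ± 35.2 in control mice (−0.36 for DEX against control, adjusted p = 0.293). Traf1, an adaptor of TNF receptors and itself a target of NF-κB, was at 16.4 ± 9.98 in DEX + TE mice, 54.6 ± 5.70 in DEX mice and 23.1 ± 15.7 in control mice (1.66 for DEX against control, adjusted p = 0.423). It entered the test only through the DEX group, and its fold change is measured from near background. Of the 7 genes of the ubiquitin ligase that destroys IκB, 6 were tested and 0 were called by limma for DEX against control, 0 had p under 0.05 before adjustment and 0 were called by Rank Product. Cul1, its cullin, was at 2152 ± 118 in DEX + TE mice, 2199 ± 37.6 in DEX mice and 2038 ± 34.8 in control mice. Fbxw11, an F-box subunit that recognises marked IκB, was at 11296 ± 451 in DEX + TE mice, 10876 ± 345 in DEX mice and 9836 ± 531 in control mice (0.15 for DEX against control, adjusted p = 0.509).

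Among 23 ligands and receptors that feed the pathway, 16 were tested, and limma called 1 lower and 0 higher in DEX mice. This was Il18, which encodes the cytokine interleukin-18. Its signals were 164, 142 and 156 in DEX + TE mice, 50.7, 60.4 and 48.4 in DEX mice, and 119.8, 190.9 and 164 in control mice. The DEX mice stood apart below both other groups. The log2 fold change was −1.55 for DEX against control (adjusted p = 0.0254), 1.54 for DEX + TE against DEX (adjusted p = 0.103) and −0.01 for DEX + TE against control (adjusted p = 0.98), so the higher level in DEX + TE mice did not pass the test. Macrophage and fibroblast marker sums, given with Nfkbia, also ranged lowest in DEX mice, and their part in the Il18 values was not tested. Tnfrsf12a, the receptor of the cytokine TWEAK, was at 1713 ± 408 in DEX + TE mice, 1951 ± 249 in DEX mice and 1131 ± 35.2 in control mice (0.78 for DEX against control, adjusted p = 0.139). Tnfrsf13c, the receptor of the B cell factor BAFF, was called higher for both injected groups against control (2.10, adjusted p = 0.0428), at 85.2 ± 29.5 in DEX + TE mice, 42.0 ± 3.67 in DEX mice and 14.9 ± 7.11 in control mice. Its signals were 37.9 to 45.0 in DEX mice and 7.68 to 21.9 in control mice. It thus entered the test only through the DEX + TE group, and its fold change is measured from near background. The cytokines Tnf, Lta, Ltb, Tnfsf11, Il1a and Il6 did not reach a mean signal of 50 in any group, and Il1b had signals of 83.9, 88.6 and 116 in DEX + TE mice, 63.9, 19.8 and 105 in DEX mice, and 79.1, 50.01 and 45.4 in control mice.

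Of 33 textbook target genes, 21 were tested. Limma called 1 higher and 0 lower in DEX mice, and 1 higher and 1 lower in DEX + TE mice, against control mice, and 0 between the DEX + TE and DEX groups (3 higher and 2 lower at p under 0.05 before adjustment, and 0 by Rank Product). The higher gene was Lcn2, which encodes the iron-binding protein lipocalin 2, with signals of 8534, 7300.3 and 7325 in DEX + TE mice, 15040, 9011 and 10810.1 in DEX mice, and 11.9, 35.1 and 58.6 in control mice. Its control values lay at or near background, and its log2 fold changes against control mice were 8.05 in DEX + TE mice (adjusted p = 0.00289) and 8.61 in DEX mice (adjusted p = 0.00207). The summed signal of 6 markers of neutrophils, cells that store this protein, was 363 to 752 in DEX + TE mice, 353 to 726 in DEX mice and 179 to 288 in control mice. Among these markers Csf3r, Cxcr2 and Elane did not reach a mean signal of 50 in any group. For DEX against control, 1 of the 3 tested was lower by value and 2 were higher at p under 0.05 before adjustment. Limma called 0 of them. The part of neutrophils in the Lcn2 values was not tested. The lower gene was Vcam1, an adhesion molecule of activated endothelium, with signals of 102, 113 and 87.8 in DEX + TE mice, 133, 122 and 184 in DEX mice, and 233, 247 and 262 in control mice. It was lowest in the DEX + TE mice, with no overlap between any groups, and its log2 fold change was −1.30 for DEX + TE against control (adjusted p = 0.0379), −0.78 for DEX against control (adjusted p = 0.117) and −0.52 for DEX + TE against DEX (adjusted p = 0.562). Endothelial markers summed to 6501 to 6694 in DEX + TE mice, 6006 to 6608 in DEX mice and 5504 to 6671 in control mice, with Cldn5 called higher in DEX + TE and in DEX mice and Vwf called lower for both injected groups, each against control. Gadd45b, a stress-response target, was at 1587 ± 394 in DEX + TE mice, 2174 ± 740 in DEX mice and 731 ± 166 in control mice (1.54 for DEX against control, adjusted p = 0.0877). The chemokines Ccl5, Ccl20, Cxcl2, Cxcl5 and Cxcl10, the enzymes Ptgs2 and Nos2, and Csf2, Csf3 and Il6 did not reach a mean signal of 50 in any group.

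**Figure D5:**
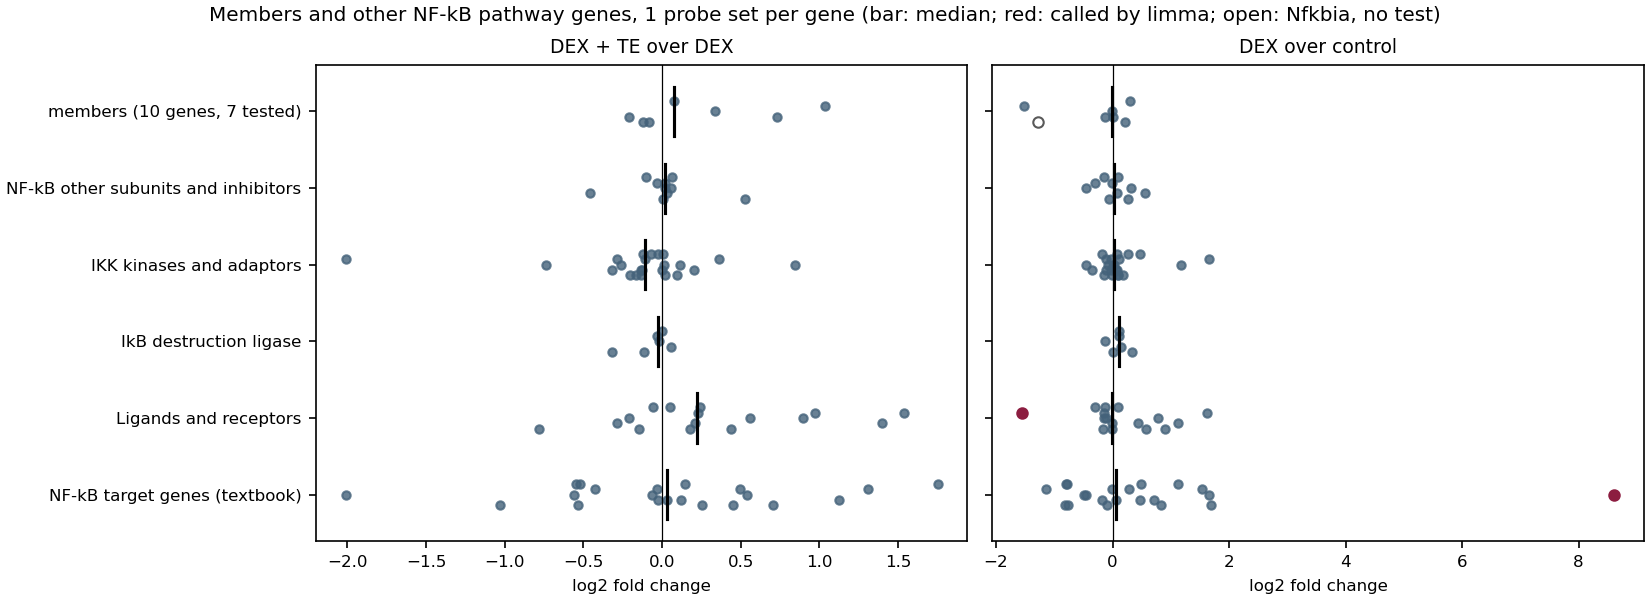
Log2 fold change in DEX + TE over DEX and in DEX over control (each panel has its own axis) for the tested genes of the members and of 5 pathway lists; points are genes, bars are list medians and red marks genes called by limma, and the open point is Nfkbia in DEX over control, the contrast that chose it, at −1.28 with no call. The red points are Il18 at −1.55 and Lcn2 at 8.61 in DEX over control, and the list medians lie between −0.11 and 0.22.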

How the data were processed

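Each array has 1 deposited intensity for each probe set. These are linear and above 0, and each array's mean is 500 after trimming 2% of probe sets at either end. The authors' methods name Robust Multi-array Average, whose output is log2 with like distributions, so these intensities are a different summary, and no source used here names its program. No detection calls were used. Of 45101 probe sets, the 64 manufacturer's controls were dropped. Gene symbols came from the array's annotation, in which 34945 probe sets had 1 symbol, 932 several and 9160 none.

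Log2 of the intensities was taken without an offset. Probe sets with a group mean of at least log2 of 50 in at least 1 group were tested with limma 3.58.1 in R 4.3.3, with 3 group means over all 9 arrays, lmFit and eBayes, and Benjamini-Hochberg adjustment over all 29269. The thresholds, 0.05 and 0.6, and the use of Rank Product follow the methods. Rank Product (100 permutations) and all summaries used numpy 2.4.6, pandas 2.3.3 and scipy 1.17.1 under Python 3.11.15, and matplotlib 3.10.9 drew the figures. The probe set with the highest mean log2 signal stood for a gene. Both tests were first run on simulated data. The simulation for Rank Product gave every probe set the same spread, which the probe sets of these arrays do not have. It therefore does not show how often Rank Product finds a change in these data. With 3 against 3 arrays an exact permutation test of a gene cannot go below a two-sided p of 0.1, so none is given.

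The members and gene lists were chosen with earlier results of these data known. The text gives all members, and of each pathway list the genes called by limma in any comparison, filled up to 4 with the largest changes of DEX against control whose groups do not overlap. Of the cell type lists it names only called genes, and the further ones that this rule takes are not described. Il1b, Ikbkb, Ikbkg and the lists' genes below 50 were named besides, after their values were seen. Replicates are separate mice per the labels. Motifs were searched in RefSeq promoters (GRCm38.p6), matched by symbol.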

Additional observations from a re-analysis of the deposited data

How the results depend on the processing

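The direction of Nfkbia (1420088_at) against the control group held in every alternative, whereas the number of its probe sets called did not. Of 4 member probe sets called for DEX against control, the contrast that chose Nfkbia, and 4 for DEX + TE against control, Rank Product called 0 and 0, no filter on low signal left 1 and 1, and a fit to only the arrays compared left 0 and 0. Nothing is read from the counts for DEX against control in this section, because they come from the values that chose the gene. With both injected groups against control, 4 were called, and Rank Product called 0. Leaving out 1 array left 0 to 2 for DEX against control, 0 to 3 for DEX + TE against control and 1 to 4 for both injected groups (2 without control replicate 1 and 1 without control replicate 3). The cause of these changes was not tested. For DEX + TE against DEX, 0 were called in all settings.

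Replicate numbers did not pair the mice: samples of the same number had correlations of −0.02 to 0.05 in their deviations over 9 pairs, and 0 of these exceeded 0.1. With the number as a replicate block, 1 member probe set was called for DEX against control, 0 for DEX + TE against DEX, 1 for DEX + TE against control and 2 for both injected groups.

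The signs that changed were those of differences that had not passed the test. With arrays centred on their medians the log2 fold change was 0.097 for Nfkbiz (DEX against control), −0.18 for Rela (DEX + TE against DEX) and −0.057 for Relb (DEX + TE against control). Quantile normalization gave −0.014 for Nfkbib and 0.090 for Nfkbiz (DEX against control) and −0.066 for Relb (DEX + TE against control). The mean over probe sets gave −0.030 for Tnfaip3 (both injected groups against control). Leaving out 1 array gave −0.16 to 0.050 for Nfkbia and −0.31 to 0.15 for Relb in DEX + TE against DEX. In DEX against control it gave −0.19 to 0.11 for Nfkbib, −0.13 to 0.13 for Nfkbiz, −0.059 to 0.44 for Relb and −0.37 to 0.0043 for Tnfaip3. In DEX + TE against control it gave −1.24 to 0.013 for Nfkb2 and −0.097 to 0.32 for Relb, and for both injected groups −0.037 to 0.38 for Relb. The cause was not tested.

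Bcl3 and Nfkbie were below the signal needed for the test, and Nfkb2 was read near it, with wide intervals. The part of low signal in these results was not tested. Rela passed an adjusted p of 0.05 in 1 setting, both injected groups against control with a mean-variance trend (0.0402), and its log2 fold change stayed below 0.6.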
